A study of Mus musculus with 2 samples.

Results

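The Mir378 family of microRNA genes and Gm25301, the gene annotated on the opposite strand of Mir378a, were examined in 2 small RNA libraries from mouse calf muscle. The 5 members (Mir378a, Mir378b, Mir378c, Mir378d and Gm25301) were taken by their GENCODE M21 symbols from the 2202 microRNA genes counted in each library. Both libraries came from gastrocnemius of B6CASTF1/J females aged 14 days, with RNA under 30 nt selected, and form 1 group with no treatment, genotype or age contrast. The biosample name of replicate 1 gives 3 females, and replicate 2 was taken to stand for 1. The labels attach the same donor identifier to both. The spread between them may therefore be partly technical, and no comparison of conditions was possible. Reads assigned to microRNA genes on the gene's own strand numbered 2672454 of 8002643 in replicate 1 and 4292012 of 12134412 in replicate 2. Levels are given as counts per 1000000 of these assigned reads (CPM), with exact (Clopper-Pearson) 95% binomial intervals that cover counting error only.

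A microRNA is cut from a hairpin transcript, loaded into an Argonaute protein and guided to messenger RNAs mainly by its seed, the bases just after its first base. miR-378a is produced from an intron of Ppargc1b, which encodes PGC-1beta, a transcriptional coactivator that drives mitochondrial and oxidative genes. It is abundant in tissues rich in mitochondria, skeletal muscle, heart and brown fat among them, and has been studied for its part in lipid and energy metabolism. Mir378b, Mir378c and Mir378d are paralogs elsewhere in the genome that were named for their similarity to it.

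Of the 5 members 3 (Mir378b, Mir378c and Mir378d) were matched in the RefSeq table used here (GRCm38.p6), and their mature sequences are shown because a single shifted or changed base sets their seeds apart. Capitals mark the seed, bases 2 to 8 counted from the 5′ end.
Mir378b: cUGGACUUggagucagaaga
Mir378c: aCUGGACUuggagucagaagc
Mir378d: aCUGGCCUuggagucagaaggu
These 3 mature RNAs carry 3 different seeds. The first base of miR-378b lies at position 2 of miR-378c, which shifts its seed by 1 base, and over their 20 common positions the only substitution is C21A (miR-378c base first, positions counted from 1 at the 5′ end of miR-378c). miR-378d starts at the same place as miR-378c and differs from it by A6C, inside the seed, and by C21G at the last base of miR-378c.

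The hairpins place these mature RNAs differently. Below, capitals mark the mature RNA within each hairpin.
Mir378b: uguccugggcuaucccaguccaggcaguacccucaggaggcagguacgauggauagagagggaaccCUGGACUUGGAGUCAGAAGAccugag
Mir378c: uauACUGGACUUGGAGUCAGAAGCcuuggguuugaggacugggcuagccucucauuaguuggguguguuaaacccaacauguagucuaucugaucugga
Mir378d: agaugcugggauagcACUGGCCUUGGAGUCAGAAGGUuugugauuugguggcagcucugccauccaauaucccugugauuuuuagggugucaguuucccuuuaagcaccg
In Mir378b the mature RNA occupies bases 67 to 86 of 92, near the 3′ end. In Mir378c it occupies bases 4 to 24 of 99, and in Mir378d bases 16 to 37 of 110, both near the 5′ end. The Mir378b hairpin lies at chr11:88352773-88352864 on the plus strand, Mir378c at chr14:46954830-46954928 and Mir378d at chr10:126710282-126710391, both on the minus strand (mm10). Mir378b sits in an intron of Msi2, which encodes an RNA-binding protein, and Mir378c in an intron of Samd4, but each is on the strand opposite to that gene. Mir378d overlaps no annotated gene, and the nearest, the long noncoding RNA Gm47966, is 3614 bp away.

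Predicted folding separated the paralogs from Mir378a. The minimum free energy of the annotated Mir378a hairpin was -0.58 kcal/mol per nucleotide (RNAfold), more stable than 92.9% of the 367 hairpins of expressed genes, whose median was -0.43. Mir378b reached -0.34, Mir378d -0.32 and Mir378c -0.27, and they were more stable than 8.72%, 5.45% and 1.36% of the same hairpins. Against all 2202 annotated hairpins these shares were 40.6%, 31.1% and 13.1%. The Gm25301 hairpin stood at -0.58, like that of Mir378a. In Mir378c 15 of the 21 mature bases were paired and in Mir378b 15 of 20, all on 1 side of the fold. In Mir378d 13 of 22 were paired, 8 with later and 5 with earlier bases, so its mature RNA did not lie on a single arm of the predicted fold.

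**Figure D1:**
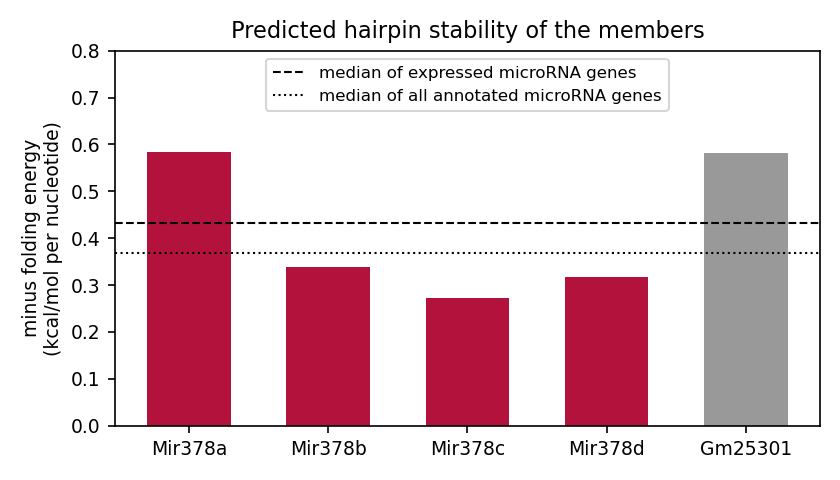
Predicted folding energy of each member's annotated hairpin in kcal/mol per nucleotide, sign reversed so that taller bars are more stable, with the medians of the 367 expressed and all 2202 annotated microRNA genes as lines. Mir378a and Gm25301 stand above both medians, and Mir378b, Mir378c and Mir378d below both.

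Mir378a (ENSMUSG00000105200.1) was far the most abundant member. It had 307493 reads in replicate 1, or 115060 CPM (95% interval 114678 to 115443), and 422580 reads in replicate 2, or 98457 CPM (98176 to 98740). It was second in rank by assigned reads in each library, an order that leaves out multiply aligned reads. The mean was 106759 ± 11740 CPM (SD, n = 2), which is 10.7% ± 1.17 of assigned reads.

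The paralogs were measurable but low. Mir378c, the highest of them, had 150 and 206 reads, or 56.1 CPM (47.5 to 65.9) in replicate 1 and 48.0 CPM (41.7 to 55.0) in replicate 2. Mir378d had 73 and 124 reads, or 27.3 CPM (21.4 to 34.3) and 28.9 CPM (24.0 to 34.4). Mir378b had 46 and 66 reads, or 17.2 CPM (12.6 to 23.0) and 15.4 CPM (11.9 to 19.6). The order Mir378a, Mir378c, Mir378d, Mir378b was the same in both libraries. Within a library, the ratio of Mir378c to Mir378d was 2.05 (1.54 to 2.76) in replicate 1 and 1.66 (1.32 to 2.09) in replicate 2, and that of Mir378d to Mir378b was 1.59 (1.08 to 2.35) and 1.88 (1.38 to 2.57). No interval of these neighbours in the order included 1.

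**Figure D2:**
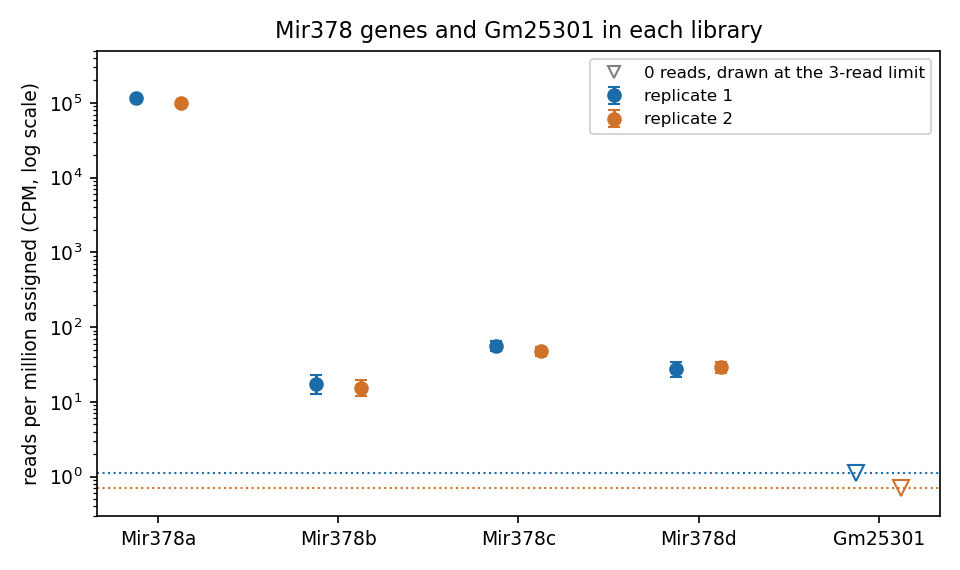
CPM of the 5 members in each library on a log scale, with exact 95% counting intervals, and dotted lines at the level of 3 reads. Mir378a stands at 115060 and 98457 CPM, the 3 paralogs between 15.4 and 56.1 CPM, and Gm25301, with 0 reads, is drawn at the limit.

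Gm25301 had 0 reads on its own strand in both libraries, where a limit of 3 reads corresponds to 1.12 CPM in replicate 1 and 0.699 CPM in replicate 2 and the exact interval reaches 1.38 and 0.859 CPM. Of the 5 members, 4 thus reached 1 CPM in both libraries, a level reached by 16.7% of all annotated microRNA genes. Together the 4 Mir378 genes held 10.7% ± 1.17 of assigned reads, and Mir378a supplied 99.91% of the family's reads in each library. Its mean CPM was 2051 times that of Mir378c, 3799 times that of Mir378d and 6552 times that of Mir378b.

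Each paralog was also set against Mir378a within its own library, which needs no library total. For Mir378c there were 488 reads per 1000000 Mir378a reads (413 to 572) in replicate 1 and 487 (423 to 559) in replicate 2. For Mir378b there were 150 (110 to 200) and 156 (121 to 199), and for Mir378d 237 (186 to 299) and 293 (244 to 350). The ratio of replicate 2 to replicate 1 in this measure was 1.00 (0.806 to 1.24) for Mir378c, 1.04 (0.706 to 1.56) for Mir378b and 1.24 (0.918 to 1.67) for Mir378d. No change relative to Mir378a was detectable at this depth for any of the 3, although the intervals reach as far as 1.67-fold for Mir378d.

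**Figure D3:**
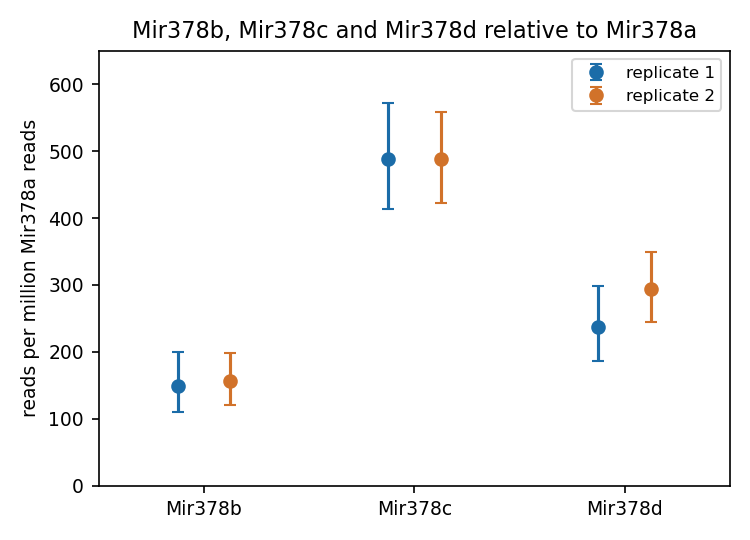
Reads of Mir378b, Mir378c and Mir378d per 1000000 Mir378a reads in each library, with exact 95% counting intervals. Mir378c lies at 488 and 487, Mir378b at 150 and 156, and Mir378d at 237 and 293.

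The similarity of the sequences bears on these counts. The longest stretch that Mir378a shares with Mir378c is 20 nt, with Mir378b 19 nt and with Mir378d 15 nt, and Mir378b and Mir378c share 19 nt. In counts of this layout a read that aligns equally well to several places enters no gene, so a read lying wholly inside a shared stretch would be missing from every member. Such multiply aligned reads made up 52.7% of replicate 1 and 52.4% of replicate 2, and how many belonged to miR-378 was not tested. A read of Mir378b or Mir378c is told from one of Mir378a by bases at the ends of the mature RNA, and whether miR-378a reads with changed ends entered the low counts of the paralogs was not tested. No annotated mature sequence of the 3 paralogs occurred in the transcripts of any other gene among 55450 GENCODE genes, a search that covers exons only.

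Mir378a lies at chr18:61397835-61397900 (mm10, minus strand), in the same direction as its host. It falls in the first intron of all 3 annotated Ppargc1b transcripts that span it, 2500 to 2531 bp from their start sites and 2389 bp into the intron. It is the only one of the 4 Mir378 genes that runs in the direction of a gene around it. Among expressed microRNA genes, 69.5% overlapped a gene on the same strand and 4.63% overlapped genes on the opposite strand only. The latter is the arrangement of Mir378b and Mir378c. Over all 2202 annotated microRNA genes these shares were 55.2% and 14.8%. Ppargc1b messenger RNA was not measured, since the libraries hold small RNA, so host and microRNA levels could not be compared.

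The 66 bp of Mir378a lie wholly inside Gm25301 (chr18:61397813-61397925, plus strand, 113 bp), and this overlap sets what each count column shows. In the same-strand column Mir378a had 307493 and 422580 reads. In the unstranded column it had 0 in both libraries, because reads compatible with both genes are set aside as ambiguous there. The column of reads opposite to Gm25301 held 307493 and 422581. The locus therefore produced reads from the minus strand, the strand of Mir378a and Ppargc1b, and none on the plus strand, where 3 reads would be 9.76 and 7.10 reads per 1000000 Mir378a reads. A single read of replicate 2 fell within Gm25301 but outside Mir378a, on the minus strand.

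**Figure D4:**
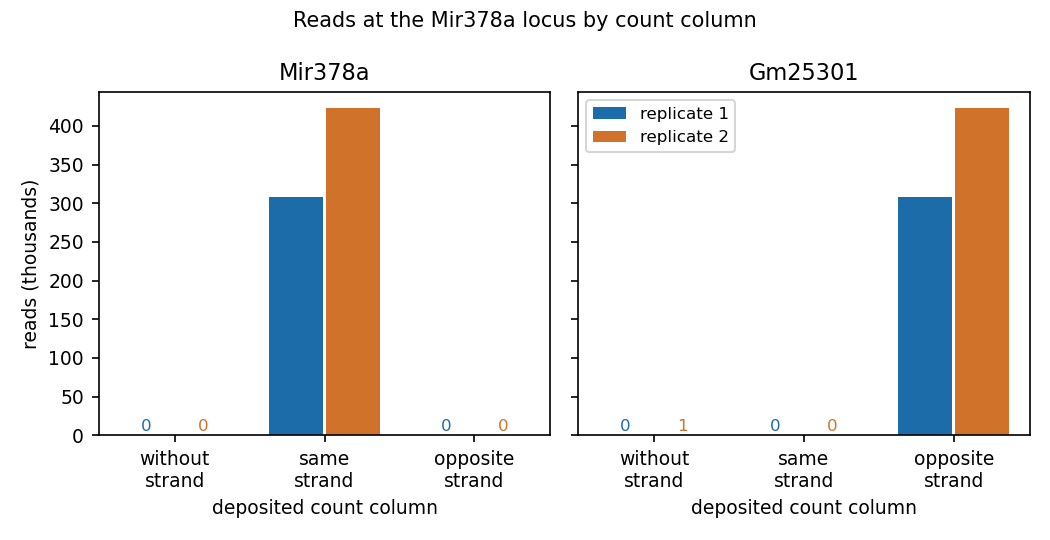
Reads (axis in units of 1000) given to Mir378a and Gm25301 by each of the 3 deposited count columns in both libraries, with values below 1000 printed as reads. Mir378a has reads in the same-strand column only, and the opposite-strand column of Gm25301 holds those same reads.

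Mir378a made up 43.4% of all reads left ambiguous by the unstranded column in replicate 1 (of 708973) and 39.7% in replicate 2 (of 1064808). With Mir126a, which has Mir126b opposite it and made up 44.8% and 48.1%, it accounted for most of the ambiguous reads. Mir378b, Mir378c and Mir378d have no microRNA gene opposite them, and their reads were the same in the unstranded and same-strand columns. A table built from the unstranded column would thus list the family by its 3 rare paralogs and omit its main member.

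Mir378a was lower in replicate 2, by 1.17-fold (1.16 to 1.17; log2 ratio of replicate 2 over replicate 1 -0.22). Of 176 genes averaging at least 100 CPM, a counting interval that excluded 1 put 34.7% higher in replicate 1 and 39.2% higher in replicate 2, so a call at this depth was common. The median gene differed by 1.12-fold, and 68 of the other genes differed by more than Mir378a did. With 1 library on each side the ratio compares the libraries and has no p-value. Mir378c had the same direction and size of ratio, with 1.17-fold higher CPM in replicate 1 (0.941 to 1.45), and Mir378b 1.12-fold (0.751 to 1.66). Mir378d stood at 0.945-fold (0.698 to 1.27). The 3 paralog intervals included 1, while of the 260 genes averaging at least 10 CPM the interval put 25.8% higher in replicate 1 and 33.1% higher in replicate 2.

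**Figure D5:**
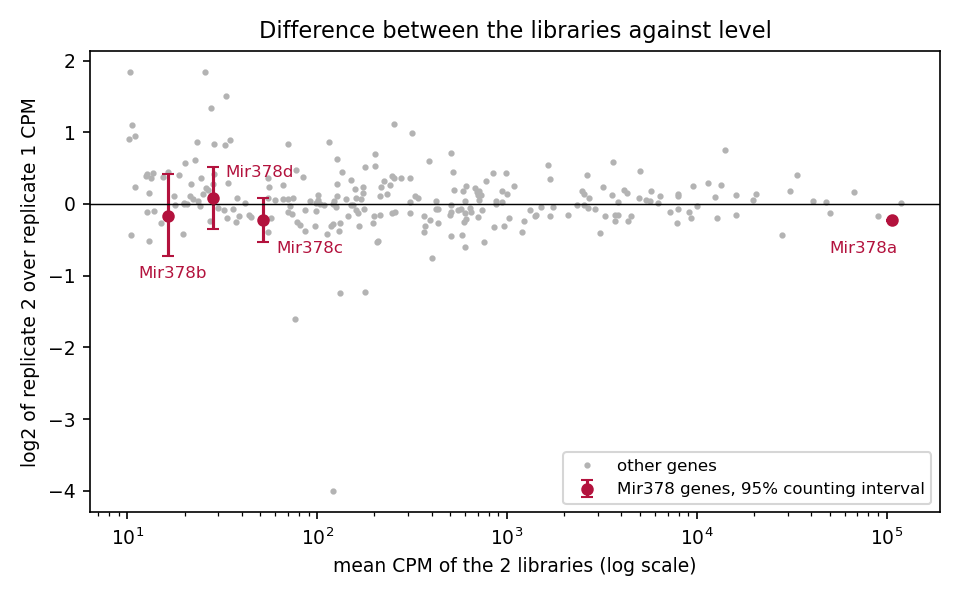
Log2 ratio of replicate 2 over replicate 1 CPM against mean CPM (log scale) for genes averaging at least 10 CPM, with the 4 Mir378 genes in red and their 95% counting intervals. Mir378a lies at -0.22 within the spread of the other genes, and the intervals of the 3 paralogs cross 0.

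Markers of other cells also differed between the libraries. Mir122 of hepatocytes had 229 CPM in replicate 1 and 14.2 in replicate 2. The erythroid pair Mir451a and Mir144 summed to 0.0437% of assigned reads in replicate 1 and 0.0185% in replicate 2, with both genes higher in replicate 1. The 5 annotated leukocyte genes (Mir146, Mir155, Mir150, Mir142 and Mir223) summed to 0.185% and 0.135%, with 4 of 5 higher in replicate 1, a call made for 25.8% of all 260 genes averaging at least 10 CPM. The endothelial Mir126a and Mir126b summed to 11.9% in each. Smooth muscle and fibroblast genes summed to 2.91% and 2.97%, with 6 of 8 expressed (against 16.7% of all 2202 genes) and no read of Mir145b or Mir199a-1. Mir199a-1 and Mir199a-2 encode the same mature microRNA and can lose reads to multiple alignment, so this last sum is a lower bound. The part of the cells named here in the difference of Mir378a was not tested.

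By assigned reads, Mir126a, the endothelial microRNA of Egfl7, stood next above Mir378a. Mir206, a skeletal muscle microRNA, and Mir127, of the imprinted Dlk1-Meg3 domain, stood next below Mir378a. Reads of Mir378a were 0.969 times those of Mir126a in replicate 1 (0.964 to 0.974) and 0.826 times in replicate 2 (0.822 to 0.829). They were 1.21 times those of Mir206 (1.20 to 1.22) in replicate 1 and 1.16 times (1.16 to 1.17) in replicate 2. Against Mir127 the ratio was 1.83 (1.82 to 1.84) and 1.39 (1.39 to 1.40). This order was the same in both libraries. The ranges of 1 SD around the means of Mir378a (106759 ± 11740 CPM) and Mir206 (89900 ± 7361 CPM) overlap, so the rank of Mir378a above Mir206 rests on the order within each library.

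The genes whose ratio between the libraries was nearest to that of Mir378a, among those averaging at least 1000 CPM, were Mir149, Mir27b and Mir674. They stood at 3681, 4341 and 1225 CPM and were 1.18-fold higher in replicate 1 in each case. This likeness is over 2 libraries only.

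On its chromosome Mir378a has few expressed neighbours. Within 500 kb lie 6 other microRNA genes, Gm25301 among them. Mir143 and Mir145a, a pair known from smooth muscle, lie 251 and 250 kb away, on the same strand. Mir143 had 19471 CPM in replicate 1 and 20154 in replicate 2, and Mir145a 757 and 717 CPM. Mir378a was higher in replicate 1, where Mir143 was lower and Mir145a was 1.06-fold higher (0.998 to 1.12). Mir7220, Mir6982 and Mir6983 had 2 reads or fewer in each library.

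Other microRNAs, listed for introns of metabolic or growth genes, had lower counted levels than Mir378a. The list also holds the Mir26 genes, whose hosts are the Ctdsp phosphatase genes. All 10 of these were annotated and 9 were expressed, against 16.7% of all 2202 microRNA genes. Together the 10 held 4.99% ± 0.112 of assigned reads. Mir26a-1 and Mir26a-2 encode the same mature microRNA, as do Mir103-1 and Mir103-2, so they can lose reads to multiple alignment and this sum is a lower bound. The highest were Mir26b in Ctdsp1 (20377 ± 1379 CPM), Mir139 in Pde2a (12762 ± 1252 CPM) and Mir335 in the imprinted Mest (12374 ± 603 CPM). Mir107 in Pank1, a coenzyme A synthesis gene, had 121 CPM in each library, from 324 reads in replicate 1 and 520 in replicate 2. Mir33 in Srebf2, a regulator of cholesterol synthesis, had 2.62 and 6.29 CPM. Of the 6 averaging at least 10 CPM, 1 was higher in replicate 1 and 3 in replicate 2 (25.8% and 33.1% of all 260 genes), with a median log2 ratio of 0.05 against 0.04 over all 260 genes.

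Of 17 listed microRNAs linked to brown fat and mitochondria, 16 were annotated and 15 expressed, against 16.7% of all 2202 microRNA genes. In all the list held 1.13% ± 0.0980 of assigned reads. This sum is a lower bound, since the Mir30c, Mir365 and Mir196a pairs each encode the same mature microRNA and can lose reads to multiple alignment. Mir27b (4341 ± 509 CPM), Mir149 (3681 ± 431 CPM) and Mir196a-2 (963 ± 143 CPM) were highest. The 4 genes used as brown adipocyte markers held 0.0815% of assigned reads in replicate 1 and 0.0909% in replicate 2. Among them Mir455 had 657 and 735 CPM and Mir193b 146 and 169 CPM, both higher in replicate 2. Mir365-2 had 8.98 and 3.73 CPM, higher in replicate 1 as Mir378a was, and Mir365-1 had 2.99 and 0.932 CPM, from 8 and 4 reads. The part of brown fat in the difference of Mir378a was not tested. Of the 13 genes of the longer list averaging at least 10 CPM, 4 were higher in replicate 1 and 4 in replicate 2, near the 25.8% and 33.1% of all 260 genes, with a median log2 ratio of -0.01 against 0.04.

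Among assigned reads, the muscle identity of the tissue was visible mainly in Mir206. The 6 skeletal muscle genes held 9.54% and 8.49% of assigned reads, nearly all of it Mir206 (95105 and 84695 CPM). Mir1a-2 had 245 and 170 CPM and Mir133b 25.4 and 31.0 CPM. The myogenic list of 12 genes held 9.11% ± 0.739 of assigned reads, against 10.7% for Mir378a alone. Of the 12, 9 were expressed, against 16.7% of all 2202 microRNA genes. After Mir206 the highest counted genes of the list were Mir486 (591 ± 74.3 CPM) and Mir499 (246 ± 47.3 CPM). Identical copies of Mir1a and Mir133a can lose reads to multiple alignment, so their levels and the sums of both lists are lower bounds. Whether the myogenic sum lies below Mir378a therefore cannot be told from assigned reads.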

How the data were processed

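Small RNA under 30 nt from 1 group of 2 gastrocnemius samples was sequenced. The deposited files hold raw counts of reads for each microRNA gene, in 3 columns read from their order as unstranded, same strand and opposite strand, after 4 summary lines that name no gene and held 66.6% and 64.6% of reads. They were made on mm10 with GENCODE M21, per the file headers in the accompanying text. Which aligner and counter were used is not given in the sources used here. Same-strand counts were divided by their total over gene rows to give CPM, where 1 read is worth 0.374 CPM in replicate 1 and 0.233 in replicate 2. All 2202 gene identifiers matched GENCODE M21. Ratio intervals are exact and conditional on the summed reads. They were tried on simulated data with counting error only, which cannot show how they do with the wider spread of these libraries. No groups were compared, so no test was run. The libraries differed beyond sampling noise (chi-square of 147 per degree of freedom over 255 genes). Most genes were named by rule: all members, the 2 above and below Mir378a in rank, and the 3 most alike. The rule also took those within 500 kb and the 3 highest of each list. Others, Mir107, Mir33 and Mir365-1 among them, were named outside it. The members and lists were chosen with earlier results of these data known. Mir696 and Mir142hg, both listed, matched no counted gene. Alternatives changed the strand column, denominator, scaling (edgeR 4.0.16, DESeq2 1.42.0), CPM limit and library. Python 3.11.15, scipy 1.17.1 and ViennaRNA 2.7.2 were used.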

Additional observations from a re-analysis of the deposited data

How the results depend on the processing

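The unstranded column moved the share of Mir378a from 10.7% to 0 and that of the family to 0.0130%. Its smaller total raised Mir378b to 21.9, Mir378c to 70.1 and Mir378d to 37.8 CPM. It gave Gm25301 0.155 CPM from 1 read, and no ratio for Mir378a. With all reads of a library as the denominator, Mir378a made up 3.66% and the family 3.67%, and Mir378b, Mir378c and Mir378d stood at 5.59, 17.9 and 9.67 CPM of all reads. With multiply aligned reads added to the gene total these values were 4.22%, 4.22%, 6.44, 20.6 and 11.1. TMM and DESeq2 scaling moved no level by more than its SD. The log2 ratio of Mir378a, -0.22, kept its sign at -0.25 with TMM, -0.24 with DESeq2 size factors, -0.14 over all reads and -0.29 without the 10 most abundant genes in the total. Each library alone gave 9.85% to 11.5% for Mir378a, 9.85% to 11.5% for the family, 15.4 to 17.2 CPM for Mir378b, 48.0 to 56.1 for Mir378c, 27.3 to 28.9 for Mir378d and 39.7% to 43.4% of ambiguous reads. The count of 4 expressed members was the same at 0.5 and 10 CPM, and 3 in the unstranded column. No paired analysis was possible because there is 1 group. At 46 to 206 reads each, the paralogs could not show changes between libraries smaller than their intervals. The loss to multiple alignment was not tested.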

Other observations

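A further annotated microRNA gene, Gm27881 (chr1:13262198-13262279, plus strand, mm10), shares 16 nt with Mir378a and with Mir378d and 15 nt with Mir378b and Mir378c. It was noticed after its values were seen. It had 13 reads in replicate 1 (4.86 CPM) and 11 in replicate 2 (2.56 CPM), a ratio of replicate 1 over replicate 2 of 1.90 (0.785 to 4.68), and passed 1 CPM in both. It lies within Ncoa2, a nuclear receptor coactivator gene, on the opposite strand, as Mir378b and Mir378c do within their genes.

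Mir378a is 1 of 20 microRNA genes averaging at least 100 CPM that have another microRNA gene opposite them, out of 64 such genes at any level. Because reads compatible with both genes are set aside as ambiguous, all 20 lost over 99% of their reads in the unstranded column in both libraries. They held 26.5% of assigned reads in replicate 1 and 24.8% in replicate 2. Besides Mir126a and Mir378a the highest were Mir299a, with 20126 and 29819 same-strand reads, Mir191 with 14944 and 24680, and Mir337 with 12844 and 21923. Like Gm25301, the opposite gene had 0 reads of its own in both libraries at 11 of the other 19. Among the rest, Mir3544 opposite Mir337 had 55 and 95 reads and Mir3107 opposite Mir486 had 31 and 64. A lack of reads was common in these libraries and not particular to opposite genes. The median over annotated microRNA genes was 0 CPM, and only 16.7% of all 2202 reached 1 CPM in both libraries.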
